A study of Homo sapiens with 6 samples.

Results

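Fatty acid and branched-chain amino acid oxidation was examined in WM164, a human melanoma line with a BRAF mutation that came from a lymph node metastasis, using 6 whole-transcript arrays. In the Parent group, 3 cultures received the vehicle DMSO. In the IDTC group, named for induced drug tolerant cells, 3 cultures were kept for 16 days in PLX4032 at 500 nM, with fresh inhibitor every 3 days. PLX4032 is vemurafenib, which blocks the mutant kinase. Both groups grew in RPMI with 5% fetal calf serum and 2 mM glutamine and carry the same BRAF mutation. One cell line was used, and the labels give no length for the DMSO treatment, so drug and time in culture cannot be told apart. Genes were taken from a list of 38 members by symbol. The brightest probe set with exactly 1 symbol stood for each gene, which gave 36 of the 38 members among 18417 genes. ACSL3 and ACAD11 were not analysed here.

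Fatty acids are burned in mitochondria after they are joined to coenzyme A, carried across the membranes on carnitine and shortened in repeated rounds of dehydrogenation, hydration, a further dehydrogenation and thiolysis. Peroxisomes shorten very long and branched chains by a parallel route. Leucine, isoleucine and valine lose their amino group, pass through the branched-chain keto acid dehydrogenase and are then handled by enzymes of the same families. Electrons from the acyl-CoA dehydrogenases of both routes reach the respiratory chain through the electron transfer flavoprotein, and the PPAR nuclear receptors activate many of these genes when they bind fatty acids.

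The values are the authors' log2 expression. All differences are IDTC minus Parent and were tested with limma over all 18417 genes. Calls required a Benjamini-Hochberg adjusted p under 0.05, and "rose" and "fell" are used for called genes. Errors are SD for group means (n = 3) and standard errors for log2 fold changes. The arrays measured whole cultures, so a lower level per cell and fewer expressing cells cannot be told apart. The labels do not say whether cultures were set up in separate experiments, and the spread behind the p-values may be partly technical.

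Pairs of arrays from the same group had r = 0.995 to 0.998, and pairs across the groups 0.953 to 0.957. Output genes of the inhibited pathway were lower in the IDTC arrays, with DUSP6 down 5.44-fold and SPRY4 down 37.7-fold, and all 8 measured MAPK output genes fell. Melanocytic markers were present, with group means of 12.53 and 13.40 for PMEL, 10.94 and 12.39 for MLANA, 10.19 and 11.39 for TYR, 10.73 and 11.57 for SOX10, 11.14 and 11.10 for MITF, 11.02 and 10.17 for S100B and 4.69 and 7.58 for TYRP1 in Parent and IDTC. DCT was not analysed here. Of 7 melanocytic markers 5 rose and 1 fell, and their summed linear signal was 15000 to 15202 in Parent and 24588 to 26196 in IDTC arrays. Among adipocyte markers 1 of 7 rose (FABP4, by 0.39 ± 0.12, a call lost without any 1 of the Parent arrays), with summed signals of 337 to 394 and 324 to 390. Of 6 hepatocyte markers 2 rose and 1 fell, with sums of 267 to 279 and 258 to 299. Of 6 fibroblast markers 1 rose and 2 fell (615 to 643 and 487 to 501), and of 5 immune markers 2 fell (2383 to 2514 and 1364 to 1367). The immune markers that fell were CD68 (group means 11.05 in Parent and 10.29 in IDTC), which made up most of these sums, and LYZ (7.76 and 4.73). PTPRC (3.67 and 3.81), CD3E (4.91 and 4.955) and CD14 (5.53 and 5.42) had low values and were not called. Limma called none of 5 endothelial markers, and none had an unadjusted p under 0.05 (242 to 273 and 247 to 266). The part of these markers in the results below was not tested.

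Among the 36 measured members 12 rose and 8 fell, which left 16 uncalled. The share called was 55.6%, against 46.6% of all genes, and 33.3% rose against 21.7% while 22.2% fell against 24.9%. The median log2 fold change was 0.04, and -0.01 over all genes. Without the dimmest 40% of genes 22 of 33 members were called, against 69.2% of 11050 genes, so the share of members called was near the background. The median absolute log2 fold change was 0.302 for the members and 0.213 for all genes. A single member, MCCC2, changed by 2-fold or more (9.21% of all genes did), and 8 of 36 were called with a change of at least 0.5 log2, against 25.3% of all genes. The groups of arrays did not overlap for 25 members, while 54.1% of all genes showed no overlap.

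**Figure D1:**
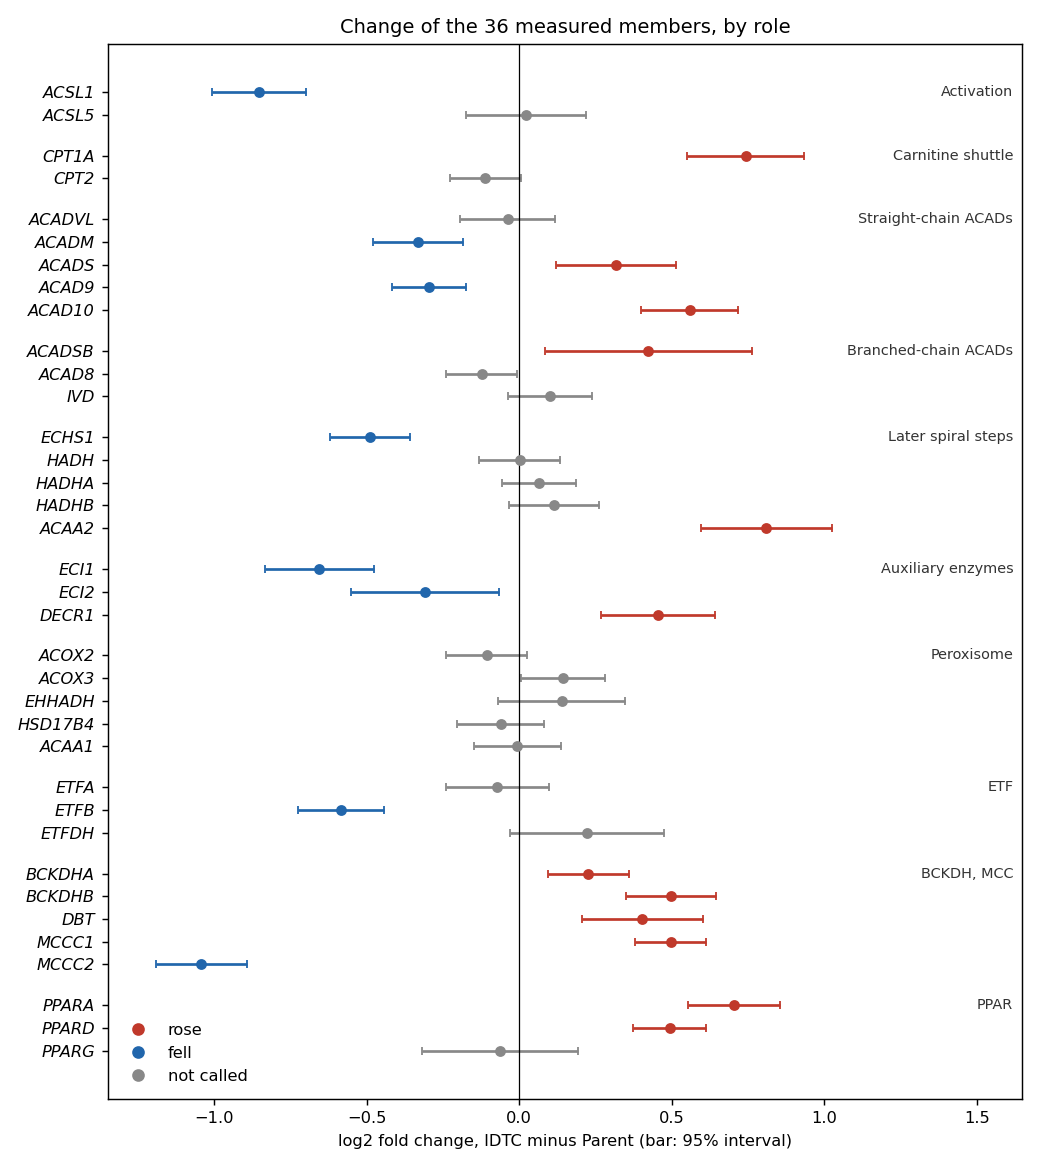
Log2 fold change (IDTC minus Parent, horizontal axis) of the 36 measured members, ordered by role, with 95% intervals from the limma fit; ACADs are acyl-CoA dehydrogenases, ETF the electron transfer flavoprotein, BCKDH the branched-chain keto acid dehydrogenase and MCC methylcrotonyl-CoA carboxylase. Red points rose (12), blue points fell (8) and grey points were not called (16), and most role groups hold more than one colour.

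The upstream sequences of 4 members are shown here because 2 of them encode partner subunits that moved in opposite directions and the others belong to a receptor that rose and a transferase that was not called. They are the 250 bases before the RefSeq start on GRCh38.p14, written 5′ to 3′ along the gene's strand, with searched motifs in capitals. MCCC1 lies on the minus strand at chr3:183099497-183099746, MCCC2 on the plus strand at chr5:71587090-71587339, PPARA on the plus strand at chr22:46150276-46150525 and CPT2 on the plus strand at chr1:53196574-53196823.
MCCC1: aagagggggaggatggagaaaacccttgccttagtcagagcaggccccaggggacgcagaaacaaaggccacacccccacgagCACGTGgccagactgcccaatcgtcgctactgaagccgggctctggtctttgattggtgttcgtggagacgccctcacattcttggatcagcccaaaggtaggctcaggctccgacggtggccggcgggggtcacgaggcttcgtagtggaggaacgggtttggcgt
MCCC2: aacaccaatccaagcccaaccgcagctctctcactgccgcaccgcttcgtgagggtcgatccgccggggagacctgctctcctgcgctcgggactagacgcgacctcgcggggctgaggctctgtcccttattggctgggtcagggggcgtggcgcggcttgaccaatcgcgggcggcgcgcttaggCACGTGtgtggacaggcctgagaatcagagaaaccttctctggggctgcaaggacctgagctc
PPARA: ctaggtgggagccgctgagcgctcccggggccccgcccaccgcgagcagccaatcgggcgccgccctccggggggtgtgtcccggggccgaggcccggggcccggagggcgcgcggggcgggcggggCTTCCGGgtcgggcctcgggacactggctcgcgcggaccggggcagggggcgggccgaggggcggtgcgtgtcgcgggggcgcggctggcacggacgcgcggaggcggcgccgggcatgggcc
CPT2: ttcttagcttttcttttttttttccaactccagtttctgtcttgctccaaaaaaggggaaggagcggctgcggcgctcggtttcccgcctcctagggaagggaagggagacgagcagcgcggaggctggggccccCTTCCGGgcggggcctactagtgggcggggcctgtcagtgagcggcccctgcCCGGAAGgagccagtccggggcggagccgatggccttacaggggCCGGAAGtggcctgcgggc
The capitals are the E-box CACGTG in MCCC1 (first base at -167 from the start) and MCCC2 (-63). In PPARA (-123) and CPT2 (-115, -63 and -19) they are the ETS motif CCGGAAG or its reverse complement.

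In all, 31 of the 36 measured members had a RefSeq window of 300 bases (250 before the start and 50 from it on), and 5 motifs were searched on both strands in these and in the windows of 14239 measured genes. The E-box CACGTG, its own reverse complement, occurred in 3 member windows (ACAD9, which fell, besides MCCC1 and MCCC2) and in 8.88% of all windows. CCGGAAG occurred in 4 (ACAD10, CPT2, ECI1 and PPARA) and in 14.6%. The cAMP response element TGACGTCA occurred in ACAD9 and ACOX3 and in 2.65%. No member window held the estrogen-related receptor element TNAAGGTCA (0.597% of all windows) or the element of PPAR and RXR, 2 copies of AGGTCA with 1 base between them (0.0211%), either copy of which can overlap the former. These matches describe letters in the windows. The members with a match included genes that rose, fell and were not called. Most of the 31 member windows, CPT1A and ACAA2 among them, held no match, whereas all 4 sequences shown above hold at least 1.

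Entry of fatty acids was split between its steps. ACSL1, which joins long-chain fatty acids to coenzyme A, gave 9.22, 9.21 and 9.24 in the Parent arrays and 8.47, 8.37 and 8.27 in the IDTC arrays. Every IDTC value lay below every Parent value, and ACSL1 fell by 0.85 ± 0.07 (1.81-fold, adjusted p = 3.05e-05). ACSL5, another long-chain ligase, was not called (4.69 ± 0.14 and 4.71 ± 0.08).

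CPT1A makes the acylcarnitine that enters the mitochondrion and is the main control point of the pathway. Its values were 7.17, 7.05 and 7.22 in Parent and 7.87, 8.03 and 7.78 in IDTC arrays. The groups did not overlap, and CPT1A rose by 0.74 ± 0.08 (1.67-fold, adjusted p = 1.97e-04). CPT2, which turns acylcarnitine back into acyl-CoA inside the mitochondrion, was at 7.95 ± 0.02 and 7.84 ± 0.02. Its difference of -0.11 was not called, although the arrays did not overlap (95% interval -0.23 to 0.005, adjusted p = 0.108).

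The acyl-CoA dehydrogenases, which open each round, did not move as one. Of 5 straight-chain enzymes and relatives 2 rose and 2 fell. ACADVL, for very long chains, was not called (10.37 ± 0.09 and 10.33 ± 0.06). ACADM, for medium chains, fell by 0.33 ± 0.06 (adjusted p = 0.00332), from 10.64 ± 0.03 to 10.31 ± 0.09. ACADS, for short chains, rose by 0.32 ± 0.08 (adjusted p = 0.0164), from 7.66 ± 0.12 to 7.98 ± 0.11. That call was lost without Parent 1, without Parent 2 or without IDTC 1.

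ACAD9, best known as an assembly factor of respiratory complex I, fell by 0.30 ± 0.05 (adjusted p = 0.00214), from 9.33 ± 0.03 to 9.04 ± 0.03. ACAD10, a less studied family member, gave 6.62, 6.58 and 6.71 in Parent and 7.30, 7.14 and 7.14 in IDTC arrays. With no overlap, ACAD10 rose by 0.56 ± 0.07 (1.47-fold, adjusted p = 3.33e-04).

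The later steps of each round showed 1 member higher, 1 lower and 3 not called. ECHS1, the short-chain hydratase that also serves valine, fell by 0.49 ± 0.06 (1.40-fold, adjusted p = 2.49e-04), from 10.16 ± 0.01 to 9.67 ± 0.07. ACAA2, the mitochondrial thiolase that releases acetyl-CoA, gave 7.92, 7.87 and 7.78 in Parent and 8.68, 8.83 and 8.49 in IDTC arrays. All IDTC values exceeded all Parent values, and ACAA2 rose by 0.81 ± 0.09 (1.75-fold, adjusted p = 2.24e-04), the largest rise among the measured members.

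HADHA and HADHB encode the subunits of the trifunctional protein, which carries out these steps on long chains. Their RefSeq starts lie on opposite strands of chromosome 2, 307 bases apart, so the upstream windows of the pair overlap. HADHA was at 10.77 ± 0.02 and 10.83 ± 0.04 and HADHB at 10.26 ± 0.02 and 10.37 ± 0.09, and neither was called (log2 fold changes 0.06, 95% interval -0.06 to 0.19, and 0.11, interval -0.03 to 0.26). Quantile normalization called HADHB, as did re-centring on the median gene, and quantile normalization over genes called HADHA too. HADH, for short and medium chains, was at 8.47 ± 0.05 in both groups, and its interval was -0.13 to 0.14.

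All 3 auxiliary enzymes, which prepare unsaturated chains for the standard rounds, were called, against 46.6% of all genes. Without the dimmest 40% of genes that share was 69.2%. ECI1, a mitochondrial enoyl-CoA isomerase, gave 8.51, 8.46 and 8.61 in Parent and 7.74, 7.91 and 7.97 in IDTC arrays. The groups were apart by more than their spread, and ECI1 fell by 0.65 ± 0.08 (1.57-fold, adjusted p = 2.70e-04). ECI2, the related isomerase, fell by 0.31 ± 0.10 (adjusted p = 0.0428), with an IDTC value (7.16) next to a Parent value (7.17). That call was lost without Parent 1, Parent 2, IDTC 2 or IDTC 3, after re-centring on the median gene and after quantile normalization over genes. DECR1, the dienoyl-CoA reductase, rose by 0.46 ± 0.08 (adjusted p = 0.00231), from 8.49 ± 0.13 to 8.94 ± 0.07.

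Limma called none of the 5 peroxisomal members, and 1 (ACOX3) had an unadjusted p under 0.05. ACOX3 and ACOX2, oxidases that act on branched chains and bile acid precursors, differed by 0.14 (95% interval 0.01 to 0.28) and -0.11 (interval -0.24 to 0.03). EHHADH and HSD17B4, the bifunctional enzymes, differed by 0.14 and -0.06, and the thiolase ACAA1 by -0.01 (interval -0.15 to 0.14). Over the peroxisomal members every interval lay within -0.24 and 0.35. ACOX3 was called higher after re-centring on the median gene, after either quantile normalization, without the dimmest 40% of genes and without Parent 1, and ACOX2 was called lower after quantile normalization over probe sets.

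Of the electron transfer flavoprotein genes 1 of 3 fell. ETFB, its beta subunit, gave 8.69, 8.69 and 8.79 in Parent and 8.21, 8.11 and 8.09 in IDTC arrays. With the groups well apart, ETFB fell by 0.58 ± 0.06 (adjusted p = 1.41e-04). The alpha subunit gene ETFA was not called (9.52 ± 0.06 and 9.45 ± 0.11), nor was ETFDH, which passes the electrons to ubiquinone (7.08 ± 0.19 and 7.30 ± 0.11). ETFDH was called higher without Parent 1 and with a block for replicate number.

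**Figure D2:**
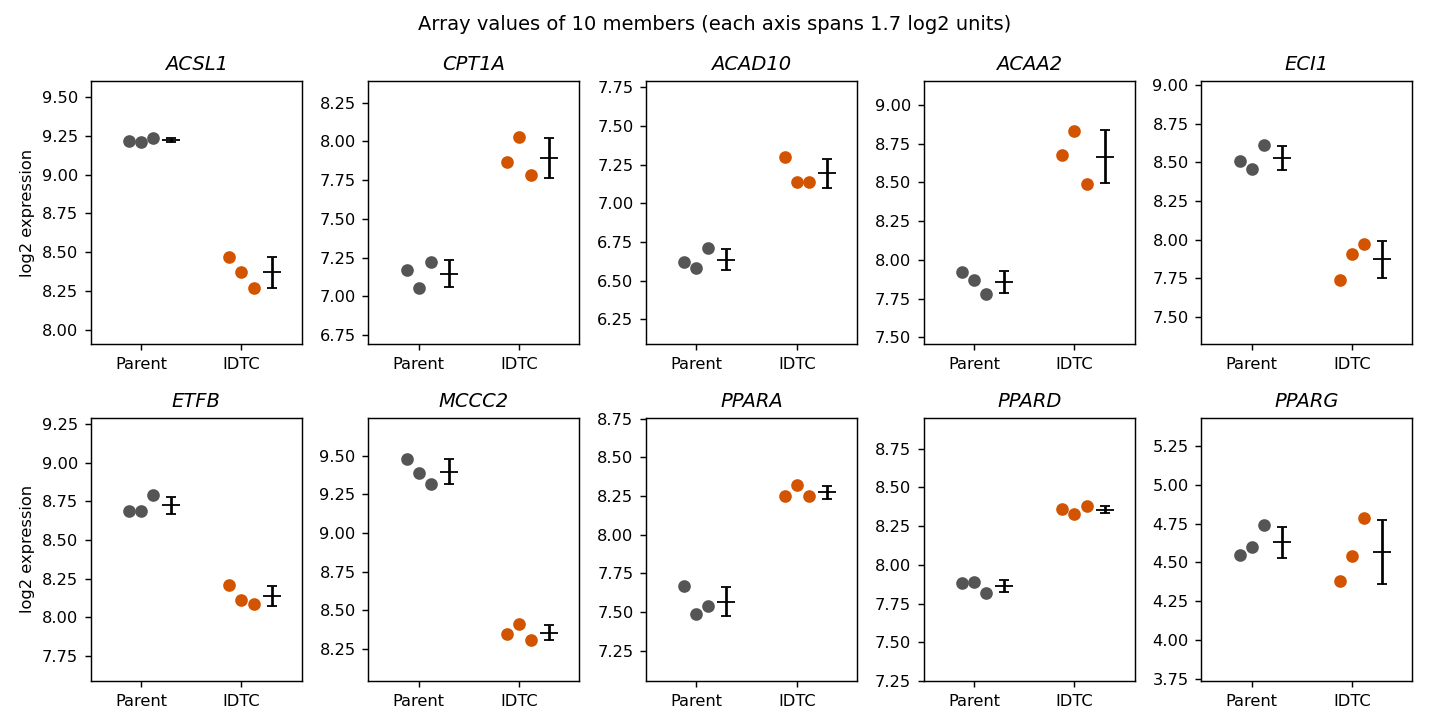
Log2 expression on each array (vertical axis; every panel spans 1.7 log2 units) of the 8 members called with a change of at least 0.5 log2 and of PPARD and PPARG; grey points are Parent and orange points IDTC arrays, and bars are mean ± SD (n = 3). The groups overlap for PPARG alone among these 10 genes.

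All 5 genes of the branched-chain keto acid dehydrogenase and methylcrotonyl-CoA carboxylase were called, of which 4 rose and 1 fell. For comparison, 46.6% of all genes were called, and 69.2% without the dimmest 40% of genes, to which none of the 5 belongs. The dehydrogenase is the committed step of leucine, isoleucine and valine breakdown. Its decarboxylase subunit genes BCKDHA and BCKDHB rose by 0.23 ± 0.06 (adjusted p = 0.0127) and 0.50 ± 0.06 (adjusted p = 4.04e-04), and the acyltransferase core gene DBT rose by 0.40 ± 0.09 (adjusted p = 0.00563). BCKDHB went from 8.40 ± 0.03 to 8.89 ± 0.09, and DBT from 8.33 ± 0.12 to 8.73 ± 0.11. The call of BCKDHA was lost without Parent 2 and after re-centring on the median probe set.

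Methylcrotonyl-CoA carboxylase, a step of leucine breakdown, has a biotin-carrying alpha subunit (MCCC1) and a beta subunit (MCCC2). MCCC2 gave 9.48, 9.39 and 9.32 in Parent and 8.35, 8.41 and 8.31 in IDTC arrays. Parent values were all above IDTC values, and MCCC2 fell by 1.04 ± 0.06 (2.06-fold, adjusted p = 9.82e-06), the largest change of the measured members. The 2 probe sets of MCCC2 carried identical values, so they are 1 measurement. MCCC1, at 7.15, 7.15 and 7.14 in Parent and 7.68, 7.64 and 7.62 in IDTC arrays, rose by 0.50 ± 0.05 (1.41-fold, adjusted p = 1.19e-04).

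The branched-chain acyl-CoA dehydrogenases act after the keto acid dehydrogenase. ACADSB, which serves isoleucine, rose by 0.42 ± 0.14 (adjusted p = 0.0468), with overlapping groups (6.40 ± 0.21 and 6.83 ± 0.23). Leaving out Parent 2, Parent 3, IDTC 1 or IDTC 2 ended that call, as did re-centring on the median probe set and quantile normalization over probe sets. ACAD8, for valine, was not called (-0.12, 95% interval -0.24 to -0.01, adjusted p = 0.0805), nor was IVD, for leucine (0.10, interval -0.04 to 0.24). ACAD8 was called lower without the dimmest 40% of genes, and IVD higher after either quantile normalization.

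Partner genes were compared within each array, for 4 pairs chosen after their values were seen. Relative to the Parent mean, MCCC1 minus MCCC2 was -0.08, 0.01 and 0.07 in Parent and 1.58, 1.48 and 1.56 in IDTC arrays, a change of 1.54. BCKDHB minus DLD, the dihydrolipoamide dehydrogenase that the complex shares with other complexes, changed by 0.95 (IDTC SD 0.06), and ETFA minus ETFB by 0.51 (IDTC SD 0.09). HADHA minus HADHB changed by -0.05 (IDTC SD 0.05). The exact permutation test (2-sided, 3 against 3) gave p = 0.1 for the first 3 pairs, the smallest this design allows, and p = 0.3 for the last, or 0.133 and 0.3 after Benjamini-Hochberg adjustment over the 4 pairs. Since the pairs were chosen with their values known, these p-values lend the shifts no support. BCKDHA and DBT, which rose like BCKDHB, were not paired with it.

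**Figure D3:**
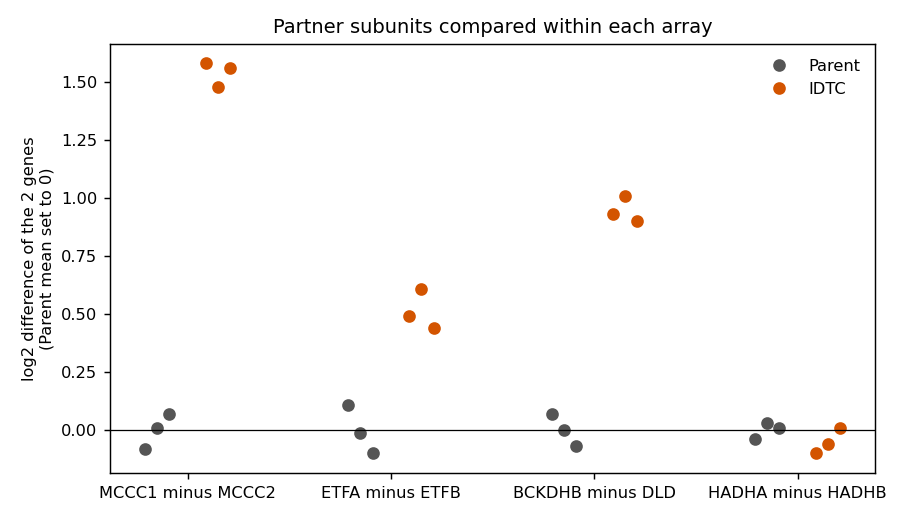
Log2 difference between partner genes on each array (vertical axis, Parent mean set to 0) for 4 pairs; grey points are Parent and orange points IDTC arrays (n = 3 each). The difference shifted by 1.54, 0.51 and 0.95 for the first 3 pairs, and the points of HADHA minus HADHB overlap.

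PPARA, the receptor that drives fatty acid oxidation genes in liver, gave 7.67, 7.49 and 7.54 in Parent and 8.25, 8.32 and 8.25 in IDTC arrays. Its groups did not overlap, and PPARA rose by 0.70 ± 0.06 (1.63-fold, adjusted p = 7.43e-05). PPARD, the broadly expressed receptor, gave 7.88, 7.89 and 7.82 in Parent and 8.36, 8.33 and 8.38 in IDTC arrays. It rose by 0.49 ± 0.05 (1.41-fold, adjusted p = 1.42e-04), with the same separation of the arrays.

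PPARG, the receptor of adipocyte differentiation, gave 4.55, 4.60 and 4.74 in Parent and 4.38, 4.54 and 4.79 in IDTC arrays. The IDTC values spanned the Parent values, and PPARG was not called (-0.06, 95% interval -0.32 to 0.19, adjusted p = 0.685). It was among the 3 members, with ACSL5 and ACOX2, in the dimmest 40% of genes. The table has no detection calls, so whether such genes lay above background is unknown and their changes may be understated.

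Over all genes 21.7% rose and 24.9% fell, the shares to set beside the counts of the lists below. SLC25A20, ACAT1 and PLIN2 are each counted in a pair of these lists. The list of partners and coactivators of the PPAR receptors also holds the orphan receptors ESRRA and ESRRG and the corepressor NRIP1. Of its 11 measured genes 6 rose, NRIP1 among them (0.36 ± 0.10), and 2 fell (54.5% and 18.2%, median 0.36). Without the dimmest 40% of genes the counts were 6 and 3, and 69.2% of the genes left were called. The obligate dimer partners RXRA and RXRB rose by 0.82 ± 0.07 (adjusted p = 6.96e-05) and 1.16 ± 0.06 (adjusted p = 6.60e-06), and the coactivator NCOA2 rose by 1.05 ± 0.09. RXRG, the brightest RXR gene (11.54 ± 0.04 in Parent and 11.40 ± 0.06 in IDTC), was not called (-0.14). PPARGC1A rose by 0.45 ± 0.06, whereas PPARGC1B fell by 0.52 ± 0.08 and the orphan receptor ESRRA fell by 0.80 ± 0.13. Among 12 other targets of the PPAR receptors 5 went up (41.7%) and 1 down (8.33%), with a median of 0.14. TXNIP rose by 0.80 ± 0.05 and VLDLR rose by 0.64 ± 0.06, the lipid droplet coat gene PLIN2 fell by 0.95 ± 0.07, and PDK4, a kinase that restrains glucose oxidation, was not called (0.12). Calls were also absent for ANGPTL4 (-0.07), FABP3 (-0.105), CD36 (0.395), UCP2 (-0.10) and CREB3L3 (-0.11). The targets that rose included the dim FABP4 (3.25 ± 0.08 in Parent and 3.64 ± 0.23 in IDTC) and UCP3 (by 0.16 ± 0.05, adjusted p = 0.0468). Quantile normalization over probe sets called 4 of the 12 targets higher and 3 lower, and quantile normalization over genes 5 and 2. The count that rose was 3 without the dimmest 40% of genes, without Parent 1, without Parent 2 or without Parent 3, and the count that fell was 2 without IDTC 3.

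Among 19 other genes in or around mitochondrial fatty acid oxidation 6 rose and 2 fell (median 0.13). ACSF2, an acyl-CoA synthetase, rose by 1.38 ± 0.05 (2.61-fold). ACACB, which makes the malonyl-CoA that inhibits the CPT1 enzymes, rose by 1.37 ± 0.10 (2.59-fold), and the ligase gene ACSL4 fell by 0.84 ± 0.11. Like CPT1A, the carnitine-acylcarnitine carrier gene SLC25A20 rose, by 0.46 ± 0.10. Of 11 other peroxisomal genes 5 rose and 1 fell (median 0.21), with CAT, which encodes catalase, up by 0.78 ± 0.06, ABCD4 by 0.59 ± 0.06 and CROT by 0.57 ± 0.08. Whether these peroxisomal genes differ from the 5 peroxisomal members was not tested.

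Other genes of branched-chain amino acid breakdown went both ways, with 8 higher, 6 lower and 4 not called of 18 (median 0.12). ALDH6A1, the last dehydrogenase of valine breakdown, rose from 7.41 ± 0.09 to 9.47 ± 0.09 (4.18-fold). Of the valine enzymes, HIBADH rose by 0.67 ± 0.06 and HIBCH by 0.64 ± 0.09. In the propionyl-CoA steps that follow, the mutase gene MMUT rose by 0.97 ± 0.09 and the carboxylase subunit gene PCCB fell by 0.22 ± 0.06, while PCCA (0.05) and MCEE (0.15) were not called. BCAT2, the mitochondrial transaminase of the first step, fell by 1.10 ± 0.09, and HSD17B10, a dehydrogenase of isoleucine breakdown, fell by 1.01 ± 0.06. Around the keto acid dehydrogenase, the inhibitory kinase gene BCKDK fell by 0.35 ± 0.06, the activating phosphatase gene PPM1K rose by 0.47 ± 0.08 and DLD fell by 0.45 ± 0.05. All 4 measured ketone body genes were called, with BDH2 up by 1.56 ± 0.10, OXCT1 up by 0.31 ± 0.05 and ACAT1 up by 0.26 ± 0.07, and BDH1 fell by 0.43 ± 0.07. The call of ACAT1 was lost without Parent 2, Parent 3 or IDTC 2 and after re-centring on the median probe set.

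Of 13 measured fatty acid synthesis genes 11 fell (84.6%, against 24.9% of all genes), FADS2 rose (0.30 ± 0.05) and 1 was not called. Without the dimmest 40% of genes 12 of the 13 fell, against 4371 of 11050 genes. The median of the 13 was -0.60, against 0.04 for the oxidation members, a contrast that was not tested. ELOVL6, an elongase, fell by 2.46 ± 0.10 (5.49-fold), FASN, the fatty acid synthase, fell by 2.14 ± 0.06 (4.42-fold) and ACLY, which supplies acetyl-CoA, fell by 1.02 ± 0.06. ACACA, which makes malonyl-CoA for synthesis, fell by 0.95 ± 0.10, whereas its oxidation-linked relative ACACB rose.

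Of 11 lipid droplet and lipolysis genes limma called none higher, also at an unadjusted p under 0.05, and 5 lower (median -0.12; quantile normalization over genes called 1 higher), with HILPDA (fell by 1.12 ± 0.05), MGLL (fell by 1.05 ± 0.10) and PLIN2 moving most. Of 13 TCA cycle genes 0 rose, also at an unadjusted p under 0.05 in limma, and 8 fell (median -0.17). IDH3A fell by 1.22 ± 0.05, MDH2 by 0.39 ± 0.05 and CS by 0.33 ± 0.07. Over all alternatives 3 to 5 lipid droplet genes and 3 to 10 TCA cycle genes were called lower. The lipid droplet count was 3 without Parent 1, Parent 3 or IDTC 1, after re-centring on the median gene and after either quantile normalization. The TCA cycle count was 3 after quantile normalization over genes, 4 without Parent 3 or after re-centring on the median gene, 5 without Parent 2 or after quantile normalization over probe sets, and 10 without the dimmest 40% of genes or with an intensity trend.

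**Figure D4:**
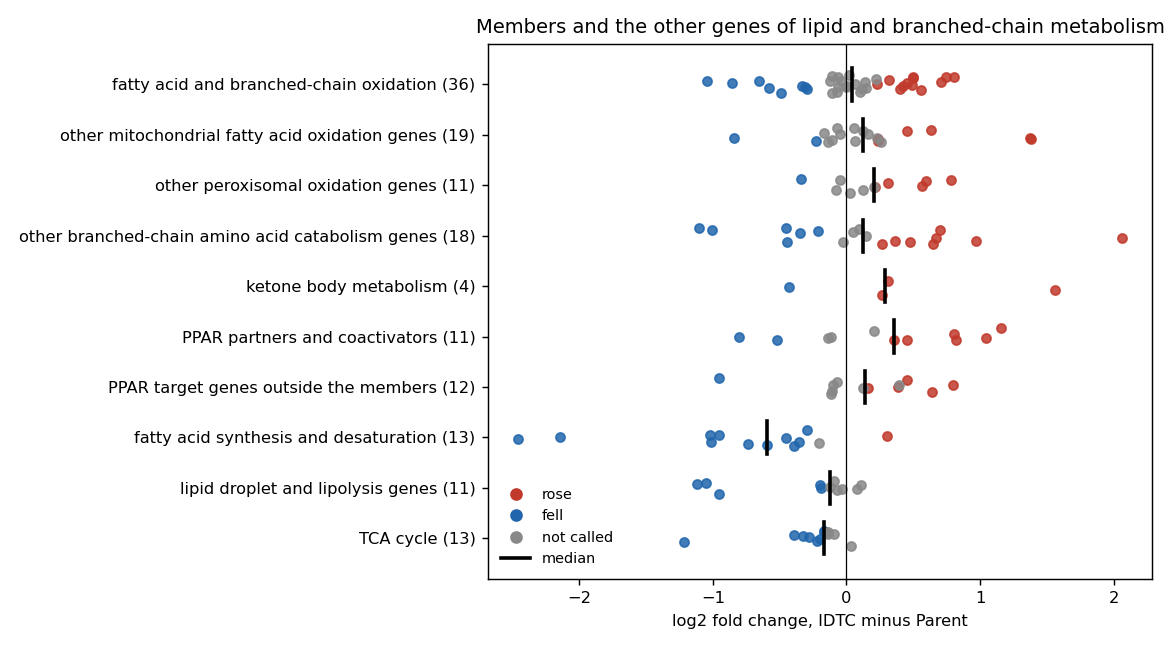
Log2 fold change (IDTC minus Parent, horizontal axis) of each measured gene in the oxidation members and 9 related lists, with the number of genes in brackets and the median as a black bar; vertical scatter within a list only separates points. Fatty acid synthesis has the lowest median (-0.60), and the oxidation members spread on both sides of 0 (median 0.04).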

How the data were processed

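RNA of 6 WM164 cultures was measured on 1-colour whole-transcript arrays. The authors had normalized the deposited log2 values. Affymetrix Expression Console, RMA and Partek 6.6 are named in the submitters' processing notes, with no role or order, and no genome build is given in the sources used here. Array medians ran from 6.25 to 6.36. Interquartile ranges were 3.60, 3.51 and 3.56 in Parent and 3.49, 3.42 and 3.31 in IDTC arrays, so every IDTC array was narrower. Quantile normalization, which removes such a difference, is among the alternatives. Precision is limited by having 3 arrays a group. Of 33297 probe sets 19460 had 1 symbol in the platform annotation, 1754 several and 12083 none listed, and 19429 matched a GRCh38.p14 gene record, which was used for names only. Promoter windows came from RefSeq on GRCh38.p14. The test was lmFit with eBayes from limma 3.58.1 (R 4.3.3), 2-sided, without covariates or filter, and the procedure was tested on simulated data. Members, roles and lists were chosen with earlier results of these data known. Array values are given for CPT1A, the PPAR genes and members called at 0.5 log2 or more, and up to 3 called genes were named per list. MCCC1, DLD, BCKDK, PPM1K, HIBADH, HIBCH, MMUT, PCCA, PCCB, MCEE, SLC25A20, RXRG, PPARGC1A, PPARGC1B, ESRRA, PDK4, FADS2, ACACA, ACAT1 and the marker FABP4 were named or detailed outside that rule, after their values were seen. The same holds for ANGPTL4, FABP3, CD36, UCP2, CREB3L3, UCP3, NRIP1, ESRRG and the markers CD68, LYZ, PTPRC, CD3E and CD14. The alternatives were other scalings, a filter on dim genes, the mean of probe sets, an intensity trend, a replicate block and leaving out each array.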

Additional observations from a re-analysis of the deposited data

How the results depend on the processing

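Over 14 alternatives 16 of the 20 called members kept their call and direction wherever they were tested, and ACADS, ACADSB, ECI2 and BCKDHA lost it under at least 1. Of the 16 uncalled members 7 were called under at least 1. No called member changed sign. The number of members that rose was 9 to 13, and that fell 7 to 8, when 1 array was left out. It was 10 and 8 after re-centring on the median probe set, 14 and 9 after quantile normalization, and 13 and 9 without the dimmest 40% of genes. Re-centring on the median gene (14 and 7) and quantile normalization over genes (16 and 7) were added after the data were seen. Whether the sample numbers of the titles pair the arrays is unknown. Deviations from the group mean of Parent and IDTC arrays of one number correlated at 0.315, -0.192 and 0.260. Those of different numbers correlated at -0.473 to 0.372. Deviations from a mean of 3 arrays depend on each other, so these values cannot settle the question. With the replicate block 13 members rose (ETFDH was added) and 8 fell, and 4148 and 4707 of all genes did so, against 3996 and 4592 without it. Left-out arrays and scalings moved the counts of the PPAR target, lipid droplet and TCA cycle lists by over 1.5 times, and the cause was not tested. The table holds no signal over background, which limits what can be said of dim members such as PPARG.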
